A study of Mus musculus with 24 samples.

Results

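B cells of the genotype Spi1fl/fl Cd23T/+ Spib-/- (PU.1 SpiB DKO) lack SpiB from the germline and lose PU.1, the product of Spi1, through a Cre recombinase driven by Cd23 (Fcer2a) regulatory sequences. The comparison described here takes the 2 DKO libraries made from lymph node B cells after 48 h in LPS (20 µg/ml) plus IL-4 (10 ng/ml) and the 2 DKO libraries of uncultured naive B cells, which are 4 of the 24 RNA-seq libraries of the series. The members were chosen by their titles alone. It asks which of the changes that activation brings about still occurred when both factors were missing. The reference was the same comparison in Control cells (Cd23T/+, which carry the Cre transgene and both factors), again with 2 libraries a stage. All mice were C57BL/6 and, per the study, 6 to 20 weeks old, and cells of both stages were isolated as CD3- B220+ CD138- lymph node cells. By the study's account the floxed part of Spi1 was partly retained in naive DKO cells and excised in activated ones, so the naive DKO libraries do not stand for cells wholly without PU.1. The DKO change, and its difference from Control, therefore span activation together with any loss of that retained PU.1, and the parts cannot be told apart here.

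A resting follicular B cell is small, does not divide and recirculates through lymphoid tissue. LPS acts on it through Toll-like receptor 4 (TLR4), the adaptors MyD88 and TRIF and NF-kB, and IL-4 acts through its receptor and the transcription factor STAT6. Together they drive the cell to grow, divide, remodel its surface, switch its heavy chain to IgG1 and IgE and, in part of the culture, start plasma cell differentiation. PU.1 and SpiB are closely related ETS family factors that bind the same purine-rich sequence built on GGAA.

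Levels are given as CPM, the read count of a gene scaled by the TMM-normalized size of its library, first for replicate 1 and then for replicate 2. A change is the log2 fold change of LPS + IL-4 over naive cells with its standard error (SE), and the difference is the change in DKO minus the change in Control, tested as an interaction. A gene rose, fell or differed here when its adjusted p was at most 0.15 and its fold, or ratio of folds, was above 1.5. CPM are relative to all RNA of a library, and the RNA content per cell was not measured. In bulk RNA, fewer cells of a type and less RNA per cell cannot be told apart.

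Total counts were 16094209 and 17594007 in naive DKO cells and 39234563 and 31238525 in the DKO cultures. Over the 16 libraries fitted together they ranged from 14231188 to 18194629 in naive cells and from 22757630 to 73658850 in LPS + IL-4 cultures. The deposited log2 RPKM tables list 13569 genes for each naive and 12634 for each LPS + IL-4 library of both genotypes, so the stages were normalized apart, and no label names a sequencing run. Stage and batch therefore cannot be told apart in either genotype, whereas a batch effect that both genotypes share drops out of the difference. In each LPS + IL-4 genotype, replicate 1 had the X-inactivation transcript Xist and almost no Y-linked transcripts and replicate 2 the reverse, while naive libraries held both. In 1 of the libraries compared, naive Control replicate 1, ribosomal RNA (Rn45s) took 3.62% of the counts and stress-induced genes were high, and differences that rest on it are given without it.

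The targeted genes and the B cell markers were read first. Spib stood at 104 and 106 CPM in naive DKO cells and 13.8 and 11 CPM after culture, against 1573 and 1416 CPM and then 259.5 and 205 CPM in Control. Its remaining reads, counted over the whole gene, fell by 3.08 ± 0.18 (SE, adjusted p = 1.5e-09) in DKO. Spi1 transcripts stood at 108 and 117 CPM in naive DKO cells and 58.7 and 54.2 CPM in the cultures (Control 166 and 182 CPM and then 67.6 and 58.9 CPM), and the counts do not separate the deleted from the intact allele. Both genes fell with activation in Control too, by 2.69 for Spib and by 1.46 for Spi1, and neither difference passed. Mybpc3, which lies next to Spi1, read 279 and 355 CPM and then 319 and 273 CPM in DKO against under 1 CPM in Control. The 12 follicular B cell markers summed to 11747 and 10970 CPM in naive DKO cells and 4227 and 4191 CPM after culture, with none at 0, and 10 of the 12 fell, as did all 12 in Control.

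In DKO cells most of the measured transcriptome still changed between the naive stage and the cultures. Of 13304 genes tested, 4139 rose (31.1%) and 4040 fell (30.4%) in DKO cells, 61.5% in all, against 4365 (32.8%) and 4308 (32.4%), 65.2% in all, in Control. DKO levels at the 2 stages did not overlap for 85.4% of all genes. Of the genes that rose in Control, 3368 (77.2%) also rose in DKO, and they made up 81.4% of the DKO rises. Of the genes that fell in Control, 3239 (75.2%) also fell in DKO, which was 80.2% of the DKO falls. In opposite directions, 76 Control rises were falls in DKO and 84 Control falls were rises.

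Over all genes tested the median size of the log2 change, whatever its sign, was 0.86 in DKO and 1.01 in Control. By the test of the difference 3478 genes (26.1%) differed, 1670 above (12.6%) and 1808 below Control (13.6%). Among the 3368 genes that rose in both genotypes the rise was smaller in DKO for 658 and larger for 158, and among the 3239 that fell in both the fall was smaller for 484 and larger for 262. The balance depended on which genotype chose the genes. Of the 4365 Control-risen genes the rise was smaller in DKO for 1169 and larger for 158, and of the 4139 DKO-risen genes it was smaller for 658 and larger for 565. Of the 4308 Control-fallen genes the fall was smaller in DKO for 1088 and larger for 262, and of the 4040 DKO-fallen genes it was smaller for 484 and larger for 617. Without naive Control replicate 1, 2020 genes differed above and 2124 below. For 498 of the Control-risen (11.4%) and 660 of the Control-fallen genes (15.3%) the 95% interval of the difference lay within 1.5-fold either way. It did so for 2299 of all 13304 genes tested. Over all genes tested the median change was 0.0027 in DKO and -0.0075 in Control and the median difference was -0.038, values against which the medians of the gene lists below can be read.

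**Figure D1:**
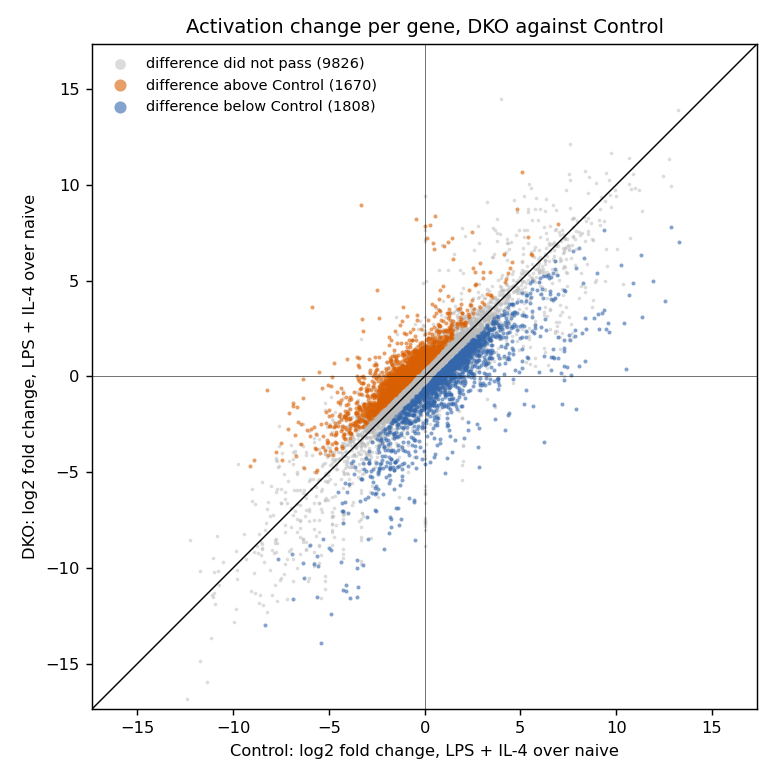
Log2 change with LPS + IL-4 in Control (x axis) and DKO (y axis) for each of the 13304 genes tested, with the line of equal change. Grey points are genes whose difference did not pass, orange points the 1670 above and blue points the 1808 below Control.

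The division programme came on in full. All 26 mitosis and chromosome segregation genes rose in DKO cells, as they did in Control, with a median change of 6.01 in DKO and 6.55 in Control. Mki67, the proliferation antigen, went from 1.62 and 0.502 CPM to 1030.4 and 555 CPM in DKO and from 1.05 and 1.78 to 610.3 and 436 CPM in Control. Its change was 9.59 ± 0.55 in DKO and 8.52 ± 0.53 in Control, and the difference did not pass (95% interval -0.83 to 2.96). Top2a, which untangles DNA before chromosomes separate, reached 1071 and 1032 CPM in DKO and 846 and 1009.9 CPM in Control from under 10 CPM in every naive library. Of the spindle genes, the difference passed for Tpx2, an activator of Aurora A, which rose by 7.97 in DKO and 6.96 in Control (1.02, adjusted p = 0.023). In all the difference passed for 7 of the 26, 4 above and 3 below Control.

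DNA replication and nucleotide synthesis genes followed the same course. In DKO 29 of 33 rose and none fell (Control 30), with a median change of 2.82 against 2.84, and the difference passed for 5. The replicative helicase subunit Mcm2 went from 62.3 and 64.3 to 359.9 and 365 CPM in DKO and from 69.8 and 63.9 to 393 and 425 CPM in Control. The 95% interval of its difference, -0.39 to 0.19, lay within 1.5-fold either way, as did that of Mcm5, -0.07 to 0.51. Tyms, which makes thymidylate, departed most. It started higher in naive DKO cells (8.47 and 4.41 CPM against 1.42 and 2.08) and ended at a like level (101 and 114 against 106 and 144 CPM), so that its rise was 4.08 ± 0.23 in DKO and 6.15 ± 0.27 in Control (difference -2.08, adjusted p = 0.0011).

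The genes that govern entry into the cycle were less alike. Among 21 G1 cyclins, CDKs and CDK inhibitors 11 rose and 3 fell in DKO, and the difference passed for 10, of which 7 lay below Control. Ccnd2, the D-type cyclin that B cells induce on activation, went from 115 and 137 CPM to 488 and 561 CPM in DKO and from 78.6 and 73.3 CPM to 1278 and 1628 CPM in Control. The DKO cultures thus held less than Control cultures although naive DKO cells held more, and the rise was 2.06 ± 0.15 against 4.26 ± 0.17 (difference -2.2, adjusted p = 1.6e-05). Its partner kinase Cdk4 rose by 0.8 in DKO and 1.77 in Control (difference adjusted p = 5.1e-04), and the S phase cyclin Ccne1 by 3.26 and 4.17 (adjusted p = 0.005). Ccnd1 fell in both, from 131 and 138 to 1.19 and 0.879 CPM in DKO and from 24 and 7.65 to 0.934 and 0.75 CPM in Control. The CDK inhibitor p27 (Cdkn1b) fell by 1.96 in DKO and by 2.66 in Control, where less of it remained (34.3 and 31.3 against 26.8 and 26.7 CPM, adjusted p of the difference 0.0013).

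The genes of cell growth rose in DKO cells, but as a group by less than in Control. Of 29 ribosome biogenesis genes 27 rose in DKO and all 29 in Control, the median change was 1.51 against 2.28, and the difference passed for 21, each below Control. Npm1, a nucleolar chaperone of ribosome assembly, went from 374 and 340.2 to 965 and 1061 CPM in DKO and from 289 and 247 to 1440.5 and 1760.3 CPM in Control (difference -1.07 ± 0.17, adjusted p = 4.8e-04). Polr1b, the second largest subunit of RNA polymerase I, rose from 60.8 and 64.8 to 109 and 115 CPM against 38.9 and 43.3 to 164 and 213 CPM in Control (difference -1.36 ± 0.18, adjusted p = 1.5e-04). Naive DKO levels of both lay above those of naive Control and cultured DKO levels below, so the smaller rise had both a higher start and a lower end. The snoRNP protein Nop58 rose by 2.2 in DKO and 3.3 in Control (adjusted p of the difference 2.9e-04).

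Myc, the regulator of this growth programme, rose from 64.6 and 80.9 to 154 and 160.2 CPM in DKO (1.11 ± 0.13) and from 70.8 and 57.6 to 202 and 240.0 CPM in Control (1.78 ± 0.13). The difference of -0.68 passed with all libraries (adjusted p = 0.016) but came to -0.54 without naive Control replicate 2, -0.47 without naive DKO replicate 2 and -0.55 without cultured Control replicate 2, each under the fold threshold. Mxd1, a MAX partner that opposes MYC, took opposite directions. It rose in DKO from 15.7 and 15.2 to 60.4 and 55.1 CPM and fell in Control from 10.3 and 11.7 to 7.55 and 5.23 CPM (difference 2.71 ± 0.26, adjusted p = 1.6e-05). In all, 3 of the 10 MYC network genes tested rose and 5 fell in DKO.

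Nutrient and metabolic genes split by pathway. Of 23 sterol and fatty acid synthesis genes 19 rose in each genotype, at medians of 1.6 in DKO and 2.05 in Control, and the difference passed for 4, all below Control. Fasn, the fatty acid synthase, rose by 2.6 in DKO and 2.34 in Control. Among the 4 was Elovl6, which elongates fatty acids (1.16 in DKO and 3.23 in Control, adjusted p of the difference 5.9e-04). Of 16 genes of amino acid uptake, serine and one-carbon synthesis 12 rose in each, at medians of 1.63 and 2.4, and the difference passed for 6, all below Control. Shmt1, a cytosolic one-carbon enzyme, went from 23.4 and 21 to 141 and 156 CPM in DKO and from 11.9 and 8.92 to 224 and 305 CPM in Control (difference -1.92, adjusted p = 6.8e-05). The leucine transporter chain Slc7a5 rose by 1.7 in DKO and 2.99 in Control (adjusted p of the difference 8.6e-05).

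Glycolytic genes rose in 12 of 18 cases (Control 13, medians 1.13 and 1.45), and the difference passed for 6, with 5 below Control. Hexokinase Hk2 rose by 3.14 and 3.74. The lactate and pyruvate carrier Slc16a1 went from 40.9 and 33.6 to 164 and 174 CPM in DKO and from 21.4 and 16.4 to 231 and 308 CPM in Control (difference -1.65, adjusted p = 1.2e-04). Of 19 genes of the respiratory chain and TCA cycle 4 rose in DKO and 11 in Control, at medians of 0.23 and 0.67. The difference passed for 4 of them, among them Idh3a of the TCA cycle (0.91 against 1.75, adjusted p = 0.0045). Pgk1 and Cycs, also in these lists, have near-identical processed copies in the genome, so their counts are uncertain.

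**Figure D2:**
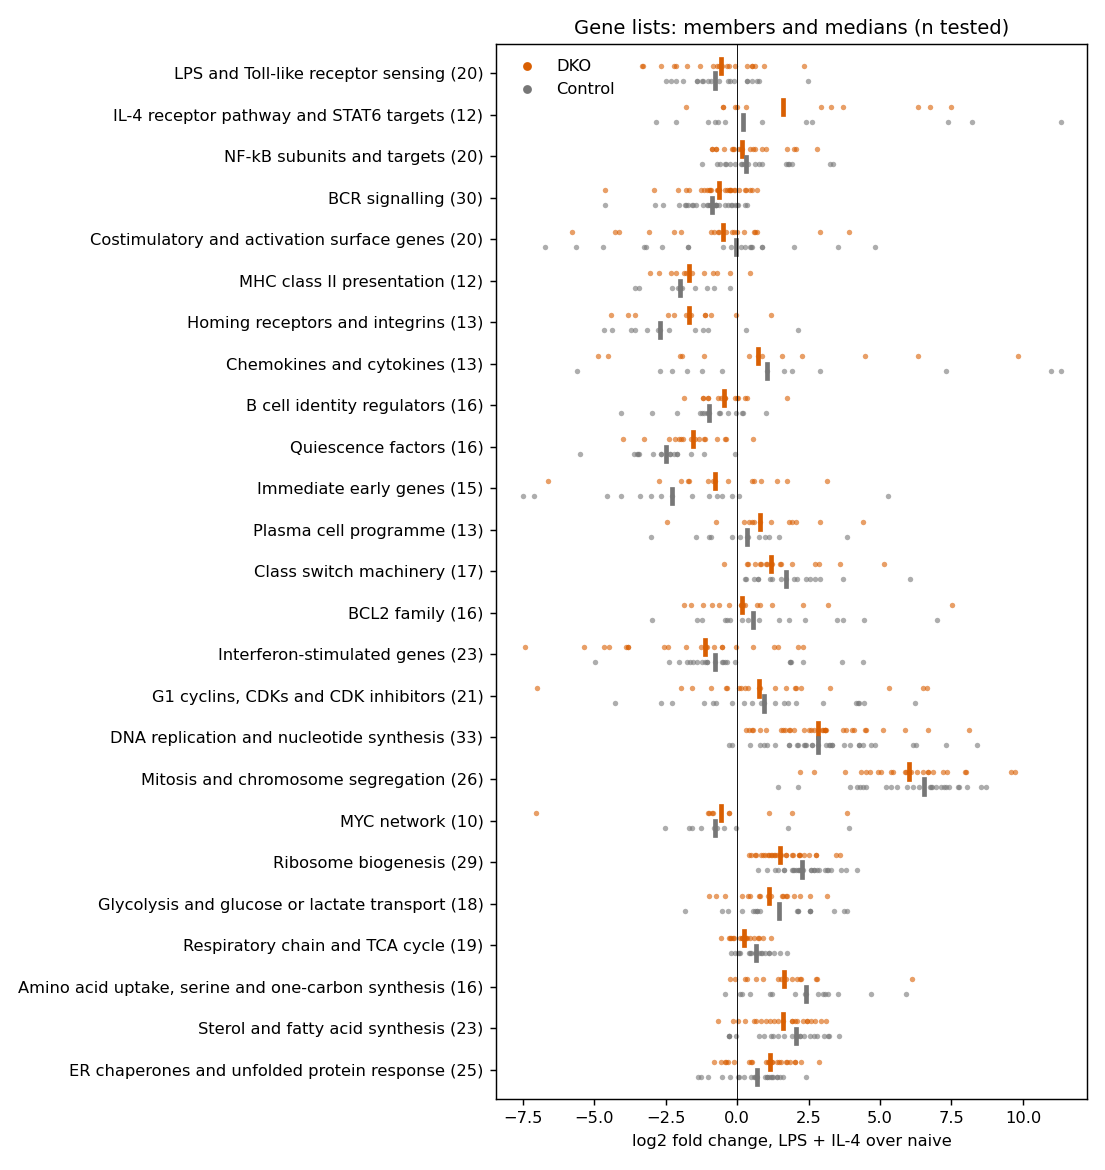
Log2 change with LPS + IL-4 for each member of 25 gene lists, in DKO (orange) and Control (grey), with a vertical bar at each list's median. Mitosis genes reached medians of 6.01 and 6.55, and ribosome biogenesis genes 1.51 and 2.28, in DKO and Control.

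Several Toll-like receptor genes fell with activation in both genotypes, and Tlr9, Tlr1 and Tlr2 fell further in DKO. Of 20 genes of LPS and Toll-like receptor sensing 3 rose and 10 fell in DKO (Control 3 and 11), and the difference passed for 8, of which 6 lay below Control. Tlr4, the LPS receptor, went from 32.7 and 32.1 to 12.8 and 13.2 CPM in DKO and from 46.2 and 48.8 to 17.9 and 23 CPM in Control, with changes of -1.31 ± 0.13 and -1.21 ± 0.12 (95% interval of the difference -0.48 to 0.27). Tlr9, the endosomal receptor for unmethylated CpG DNA, went from 295 and 261 to 25.5 and 30.2 CPM in DKO and from 384 and 365 to 84.6 and 66.8 CPM in Control (difference -1.01 ± 0.22, adjusted p = 0.0045). Unc93b1, which carries endosomal Toll-like receptors to their compartment, fell to 214 and 213 CPM in DKO against 452 and 348 CPM in Control (difference -0.79, adjusted p = 0.0076). Tlr1 and Tlr2, partners in lipoprotein sensing, and Ly86, the MD-1 partner of RP105, also fell by more in DKO, with differences of -0.76, -0.79 and -0.9. The adaptor Ticam2 (TRAM), which links TLR4 to TRIF, rose alike in both (2.35 and 2.5, 95% interval of the difference -0.57 to 0.28). Irak2, a signalling kinase-like protein below MyD88, fell by less in DKO (-0.86 against -2.15, adjusted p of the difference 3.3e-04).

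Part of the IL-4 receptor pathway genes rose in DKO cultures, and Il4ra and Socs1 rose by more than in Control. LPS and IL-4 were given together, so no change can be assigned to IL-4 alone. Of 12 genes of the IL-4 receptor pathway 6 rose and 1 fell in DKO (Control 6 and 5), with medians of 1.62 and 0.22. The difference passed for 4 above and 1 below Control. Outside this list Ccl22 and Ighe, described below, reached lower levels in DKO than in Control cultures. Il4ra, the receptor's ligand-binding chain and itself a STAT6 target, went from 278 and 301 to 2369 and 2018 CPM in DKO and from 473 and 602 to 1005 and 946 CPM in Control. It was thus lower in naive DKO cells and higher in DKO cultures, with a rise of 2.92 ± 0.13 against 0.86 ± 0.12 (difference adjusted p = 5.6e-06). The feedback inhibitor Socs1 ended at 213 and 242 CPM in DKO and 120.2 and 96 CPM in Control (difference 1.29, adjusted p = 0.012). Cish, another such inhibitor, and Nfil3, which IL-4 induces in B cells, rose by 7.48 and 6.75 in DKO and 8.22 and 7.37 in Control. Irs2, an adaptor of the IL-4 receptor, read 16.5 and 23.2 CPM and then 25.6 and 23.8 CPM in DKO and fell in Control from 38.6 and 33.3 to 5.76 and 4.4 CPM (difference 3.16, adjusted p = 1.9e-05). Fcer2a (CD23), a further STAT6 target whose regulatory sequences drive the Cre, read 161 and 209 CPM and then 197 and 168 CPM in DKO against 1407 and 1541 CPM and then 742 and 697 CPM in Control (difference 1.02, adjusted p = 0.0027).

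NF-kB subunits and targets, 20 genes, rose in 7 and fell in 4 cases in DKO (Control 9 and 3), and the difference passed for 4. Nfkb1, the p105 subunit precursor, rose by 2.07 ± 0.14 in DKO and 1.79 ± 0.14 in Control, and the feedback inhibitor Tnfaip3 (A20) by 1.98 and 1.7. Traf1, an adaptor of TNF receptors, went from 35.6 and 40.4 to 125 and 133 CPM in DKO and from 23 and 33.7 to 244 and 289.7 CPM in Control (difference -1.48 ± 0.21, adjusted p = 2.1e-04). Bcl3, an atypical IkB protein, lay above Control by 0.94 (adjusted p = 4.1e-04) although its own change passed in neither genotype.

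The A1 survival genes departed further. Bcl2a1b, an anti-apoptotic BCL2 family member (A1) induced by NF-kB, fell in DKO from 22.3 and 15.8 to 9.52 and 11.1 CPM and rose in Control from 39.7 and 27.3 to 114 and 125 CPM. Its change was -0.88 ± 0.22 in DKO and 1.83 ± 0.21 in Control (difference -2.71, adjusted p = 3.9e-05). Bcl2a1d, a close copy, went from 4.59 and 3.01 to 7.62 and 9.87 CPM in DKO and from 9.5 and 6.61 to 82.7 and 97.6 CPM in Control (difference -2.28, adjusted p = 9.4e-04). Uniquely mapped reads can be split unevenly among these near-identical genes, so the single copies are uncertain. Bcl2l1 (BCL-xL) rose by 3.19 ± 0.15 in DKO and 3.72 ± 0.15 in Control, and Bcl2 itself fell by 1.61 and by 1.42.

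Of the 16 BCL2 family genes tested 6 rose and 5 fell in DKO (Control 8 and 3), and the difference passed for 7. The pro-apoptotic genes Bbc3 (PUMA) and Bid rose in Control by 2.36 and 1.47 and read 0.27 and 0.2 in DKO, neither of which passed (difference -2.1 and -1.28, adjusted p = 9.7e-05 and 5.7e-05). Bbc3 stood at 9.89 and 10.7 and then 12.8 and 11.9 CPM in DKO and at 4.04 and 4.09 and then 24.4 and 17.6 CPM in Control. Bmf, a BH3-only gene, fell in both (-1.86 and -2.97).

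Since PU.1 and SpiB bind purine-rich sites, the letters GAGGAAGT, on either strand, were searched in RefSeq promoters on GRCm38.p6, 300 bases each (250 before to 50 after the start site). They occur in 3.2% of all 32851 such windows. Of the 556 genes tested from the lists and the largest changes, 439 had a window and 26 held the letters in any of their windows. That count is per gene and cannot be set against the share per window. Sites are shown for the 6 of these that are described above or with the BCR genes below and whose difference passed below Control, chosen after their values were seen. Each site below is 30 bases read 5′ to 3′ on the strand that holds the match, which is in capitals.
Bcl2a1b, chr9:89199114-89199143, plus strand: cagaagaggaaGAGGAAGTggtgtgttgct
Bcl2a1d, chr9:88731936-88731965, minus strand: ctgaatcagaaGAGGAAGTggtgtgttgct
Tlr9, chr9:106222597-106222626, minus strand: ctcagagaattGAGGAAGTgacactttcac
Tlr1, chr5:64933563-64933592, minus strand: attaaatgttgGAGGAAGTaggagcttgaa
Cd72, chr4:43454657-43454686, plus strand: aagtcataaaaGAGGAAGTaggtctttggc
Elovl6, chr3:129532195-129532224, minus strand: gcgccaagaggGAGGAAGTggccttgaggt
The match lies 148 bases before the start site of Bcl2a1b, 104 before that of Bcl2a1d, 23 before that of Tlr1 and 49 before that of Cd72, 180 before that of Elovl6, and 11 bases after that of Tlr9. The Bcl2a1b and Bcl2a1d sites share the match and the 11 bases that follow it. A match is a description of the sequence and not evidence of binding, and Rel, Vav1 and Bak1, whose differences did not pass (0.27, 0.09 and -0.02), hold such a match in the same window.

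Among costimulatory and activation surface genes, 20 in all, 4 rose and 10 fell in DKO (Control 5 and 8), and the difference passed for 10, with 7 below Control. Cd86, a ligand of CD28 and CTLA-4, read 19.1 and 20.3 and then 16.3 and 19.9 CPM in DKO, where it did not pass, and rose in Control from 33.4 and 36.9 to 68.1 and 60.1 CPM (difference -0.99 ± 0.22, adjusted p = 0.0059). Cd44, the hyaluronan receptor, was higher in naive DKO than in naive Control cells (255 and 236 against 118 and 100.3 CPM) and read 295 and 288 CPM in DKO cultures and 392 and 478 CPM in Control (difference -1.75, adjusted p = 9.9e-06). The transferrin receptor Tfrc rose by 2.91 and the IL-2 receptor chain Il2ra by 3.9 in DKO (Control 3.55 and 4.81). Icosl, the ligand of ICOS, fell from 163 and 238 CPM to 4.0 and 3.22 CPM in DKO and fell by 5.64 in Control. Pdcd1lg2 (PD-L2), an inhibitory ligand, kept more of its level in DKO cultures (11.9 and 12.5 CPM from 23.2 and 22.6) than in Control (6.05 and 6.58 from 43 and 35.6 CPM, adjusted p of the difference 2.6e-05).

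MHC class II presentation went down in both genotypes. In DKO 10 of 12 genes fell and in Control 11, with medians of -1.69 and -2.01, and the difference passed for 4, all above Control. H2-Aa, a class II alpha chain, went from 10384 and 8392 to 2022 and 2247 CPM in DKO and from 13349 and 11872 to 2751 and 2430.2 CPM in Control (95% interval of the difference -0.3 to 0.59), and the invariant chain Cd74 fell by 1.59 and by 1.94. By limma voom with quantile normalization the DKO change of Cd74 was -0.5 and did not pass (adjusted p = 0.17). The peptide editor subunit H2-DMb2 fell by less in DKO (-1.17 against -2.01, adjusted p of the difference 8.5e-04).

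Homing receptors and integrins fell in 11 of 13 cases in each genotype, at medians of -1.7 in DKO and -2.69 in Control, and the difference passed for 10, of which 7 lay above Control. Cxcr4, the receptor for CXCL12, went from 151 and 92.4 to 24.6 and 27.4 CPM in DKO and from 432 and 449 to 22.9 and 19.8 CPM in Control (difference 2.15 ± 0.43, adjusted p = 0.0029). The groups ended alike and differed at the start. S1pr1, the exit receptor, fell to 86 and 90.1 CPM in DKO and 50.4 and 29.5 CPM in Control from like levels (difference 1.16, adjusted p = 0.0068). Itgal, the LFA-1 alpha chain, fell in DKO from 353 and 396 to 196 and 199 CPM and read 324 and 352 and then 419.5 and 424 CPM in Control (difference -1.24, adjusted p = 4.6e-05).

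Of the 13 chemokine and cytokine genes tested 6 rose and 5 fell in DKO (Control 7 and 5). Ccl22, a chemokine of activated B cells that IL-4 induces, was the extreme case. It went from 0.194 and 0.391 to 13.1 and 36.1 CPM in DKO and from 0.224 and 0.149 to 433 and 539 CPM in Control (difference -4.98 ± 1.69, adjusted p = 0.048). The DKO cultures lay well apart from each other but far below both Control cultures. Without naive DKO replicate 2 the difference was -4.33 and did not pass (adjusted p = 0.29). Il6 had no count in the naive libraries of either genotype and reached 4.53 and 2.99 CPM in DKO and 7.27 and 9.16 CPM in Control, and Ltb (lymphotoxin beta) fell by 4.87 and by 5.62. Ebi3, a cytokine subunit that B cells induce, went from 9.64 and 8.48 to 14 and 19.5 CPM in DKO and from 19.5 and 20.1 to 69.1 and 79.8 CPM in Control (difference -1.03, adjusted p = 0.0077).

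**Figure D3:**
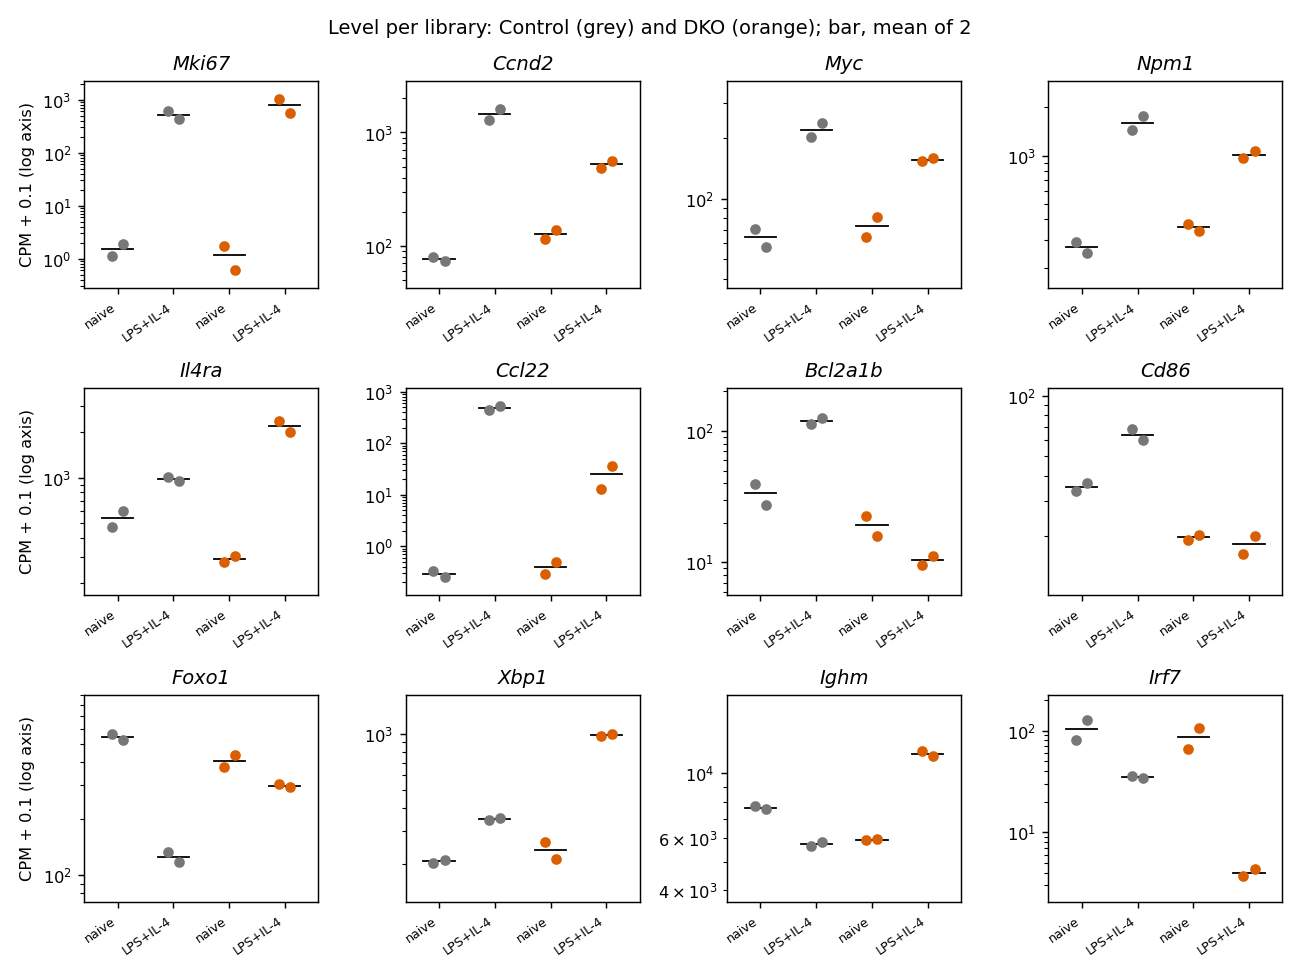
Level in each library (CPM on a log axis, with 0.1 CPM added) of 12 genes in naive and LPS + IL-4 libraries of Control (grey) and DKO (orange), 1 point a library and a bar at the mean of 2. Ccnd2 reached 488 and 561 CPM in DKO and 1278 and 1628 CPM in Control, while Il4ra reached 2369 and 2018 CPM in DKO and 1005 and 946 CPM in Control.

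The resting programme was lost less completely. Of 16 quiescence factors 13 fell in DKO and 15 in Control, with medians of -1.55 and -2.5, and the difference passed for 11, all above Control. Klf2, which holds lymphocytes at rest and controls their trafficking, went from 730.5 and 684 to 175 and 171 CPM in DKO and from 1099.5 and 1016 to 119 and 67.8 CPM in Control (difference 1.48 ± 0.28, adjusted p = 0.0019). Foxo1, a forkhead factor of resting B cells, read 376 and 434 and then 305 and 293 CPM in DKO and fell in Control from 560.0 and 523 to 132 and 117 CPM (difference 1.68, adjusted p = 5.6e-06). The antiproliferative genes Btg1 and Btg2 fell by 2.4 and by 1.61 in DKO, less than the falls of 3.62 and of 2.94 in Control (adjusted p of the differences 0.005 and 0.001). Txnip, a brake on glucose uptake, fell alike (-3.27 and -3.48, 95% interval of the difference -0.35 to 0.78).

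B cell identity regulators showed the same tendency. In DKO 1 of 16 rose and 6 fell, in Control 1 and 11, with medians of -0.45 and -0.99. Ets1, an ETS factor that restrains plasma cell differentiation, went from 1009.9 and 1308 to 606 and 540.4 CPM in DKO and from 1642 and 1771 to 242 and 189.8 CPM in Control (difference 1.97 ± 0.21, adjusted p = 2.6e-05). Bcl6, the germinal centre regulator, fell in DKO from 29.4 and 34.1 to 9.2 and 8.46 CPM and in Control from 93.4 and 118 to 8.28 and 4.76 CPM (difference 2.21, adjusted p = 2.5e-04). It was lower at the start in DKO and not at the end. Mef2c and Pou2af1 (OBF-1), regulators of mature B cells, read 0.04 and 0.36 in DKO, neither of which passed, and fell in Control by 0.98 and by 0.6 (adjusted p of the differences 5.4e-04 and 7.7e-04). By limma voom with quantile normalization the DKO change of Pou2af1 was 0.85 and passed (adjusted p = 8.4e-07). Pax5, which maintains B cell identity, and Ebf1 fell in both (Pax5 -1.2 and -1.17, Ebf1 -1.03 and -1.29).

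BCR signalling genes, 30 in all, fell in 16 cases and rose in 1 in DKO, against 21 and none in Control, and the difference passed for 11, with 10 above Control. The receptor's signalling chain Cd79a went from 2832 and 2480.4 to 754 and 788 CPM in DKO and from 3074 and 3031 to 553 and 459 CPM in Control (difference 0.81, adjusted p = 0.0047). Cr2 (CD21), part of the coreceptor, fell by 4.63 and by 4.62. Cd72, an inhibitory coreceptor, was the gene that lay below Control. It fell in DKO from 353 and 348 to 43.2 and 49.3 CPM and in Control from 290.2 and 291 to 88.3 and 78.3 CPM (difference -1.12 ± 0.2, adjusted p = 0.0014). Pik3cd, the p110 delta catalytic subunit, rose in DKO by 0.69 and read -0.02 in Control (adjusted p of the difference 0.007), and without naive Control replicate 2 that difference was 0.55, under the fold threshold.

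Immediate early genes behaved differently in the 2 genotypes. Of 15 tested, 5 rose and 7 fell in DKO, 1 rose and 11 fell in Control, and the difference passed for 13, of which 12 lay above Control. Jun, an AP-1 subunit, rose in DKO from 34 and 33.2 to 112 and 114 CPM and fell in Control from 108 and 53.8 to 43.4 and 38.6 CPM (difference 2.72 ± 0.34, adjusted p = 9.2e-05). Nr4a1 (NUR77), a reporter of antigen receptor signalling, fell to 11 and 8.67 CPM in DKO and 4.42 and 3.44 CPM in Control (difference 2.11, adjusted p = 5.2e-04). Atf3, a stress-induced factor, was the member below Control (3.15 in DKO and 5.27 in Control), and without naive DKO replicate 1 its difference was -1.7 (adjusted p = 0.16) and did not pass. Naive Control replicate 1 was high in this class, with Fos at 194 and 40.9 CPM and the MAPK phosphatase Dusp1 at 63.1 and 17.1 CPM in replicates 1 and 2. Without that library the difference was 2.14 for Jun, 1.97 for Nr4a1, 2.86 for Fos (from 4.39) and 2.53 for Dusp1 (from 3.76). The list's count of 12 above Control includes that library and was not redone without it.

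**Figure D4:**
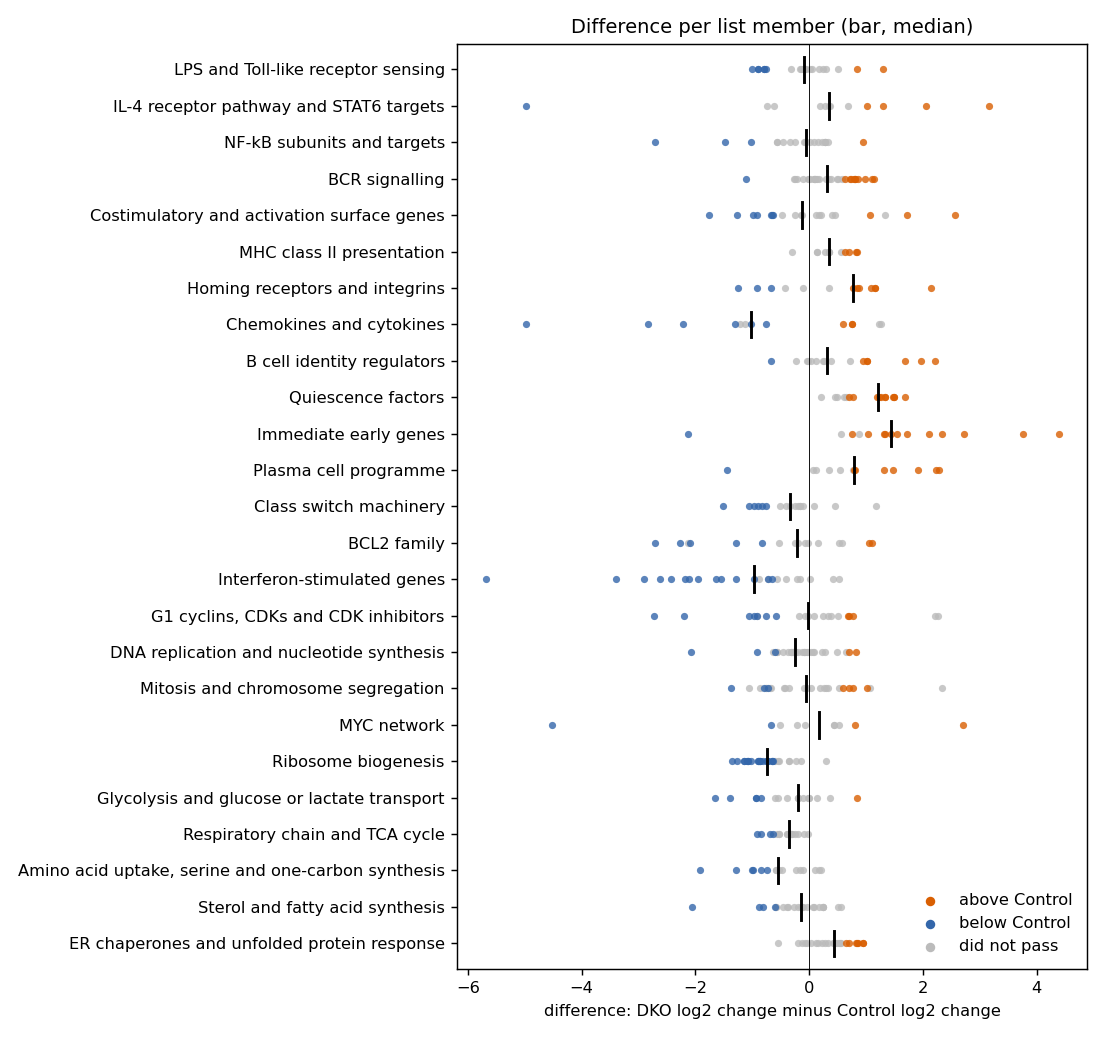
Difference (DKO log2 change minus Control log2 change, x axis) for each tested member of 25 gene lists, orange and blue where it passed above or below Control, with a bar at each list's median. Of the ribosome biogenesis genes 21 of 29 are blue, of the interferon-stimulated genes 14 of 23, and of the immediate early genes 12 of 15 are orange. These counts include naive Control replicate 1.

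The plasma cell programme was induced and in part further than in Control. Of 13 genes tested 7 rose and 1 fell in DKO (Control 5 and 4), with medians of 0.8 and 0.33, and the difference passed for 8, of which 7 lay above Control. Prdm1 (Blimp-1), the regulator of antibody-secreting cells, went from 3.04 and 2.29 to 59.2 and 53.5 CPM in DKO and from 1.05 and 1.63 to 21.2 and 18 CPM in Control. Its DKO levels were the higher at both stages, its rise was 4.41 ± 0.22 against 3.86 ± 0.25, and the difference did not pass (95% interval -0.2 to 1.31). It passed without naive Control replicate 1 (0.84, adjusted p = 0.14) and by limma voom with quantile normalization (0.99, adjusted p = 0.12). Xbp1, the regulator of the secretory apparatus, rose from 261 and 212 to 974 and 999 CPM in DKO and from 203 and 210.1 to 343 and 353 CPM in Control (difference 1.31 ± 0.16, adjusted p = 7.2e-05). Ell2, the elongation factor that favours secretory heavy chain mRNA, rose from 46.8 and 50.9 to 404 and 327 CPM against 31.9 and 31.8 to 60.9 and 65 CPM (difference 1.92, adjusted p = 2.7e-05). Irf4 rose by 1.2 in DKO and read 0.39 in Control (adjusted p of the difference 0.0029). Sdc1, the gene of CD138, which the sort selected against, fell in both, in DKO to 7.6 and 7.0 CPM and in Control to 8.04 and 7.36 CPM.

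Endoplasmic reticulum chaperones and genes of the unfolded protein response rose in 16 of 25 cases in DKO and 15 in Control, with medians of 1.13 and 0.69, and the difference passed for 7, all above Control. BiP (Hspa5) went from 569 and 639 to 2140.1 and 2196 CPM in DKO and from 581 and 629 to 1693 and 2002 CPM in Control, a difference that did not pass. Edem1 and Sel1l, which serve the degradation of misfolded proteins, rose in DKO by 1.01 and 1.4 and read 0.07 and 0.58 in Control (adjusted p of the differences 4.4e-04 and 0.0016). Creld2, an ER stress-induced isomerase, rose by 2.24 and 1.39 (adjusted p of the difference 0.0091).

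Class switching genes rose in 14 of 17 cases in each genotype and none fell, with medians of 1.18 in DKO and 1.72 in Control, and the 6 differences that passed lay below Control. Ung and Apex1, enzymes of base excision repair that act in class switching, rose by 1.5 and 1.21 in DKO and by 2.55 and 2.72 in Control (adjusted p of the differences 6.8e-04 and 6.4e-05). Batf, an AP-1 factor needed for switching, rose by 2.87 and 3.7 (adjusted p of the difference 0.0051).

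The heavy chain constant regions were read from the same libraries. Ighg1 went from 2.59 and 1.23 to 305 and 265 CPM in DKO and from 5.09 and 1.19 to 121 and 147 CPM in Control (difference 1.83 ± 0.58, adjusted p = 0.037). Without naive Control replicate 1 the difference was 0.44 and did not pass (adjusted p = 0.65). Ighe had no count in naive cells of either genotype and reached 11.6 and 9.69 CPM in DKO and 29.3 and 28 CPM in Control. Ighm rose in DKO from 5902 and 5944 to 11905 and 11420.0 CPM and read 7706 and 7533 and then 5668 and 5819.9 CPM in Control, without overlap between the genotypes at either stage (difference 1.39 ± 0.16, adjusted p = 5.0e-05). Igkc read 2616 and 2449.6 and then 1843 and 1834 CPM in DKO and fell in Control from 5769.8 and 5172 to 1343 and 1431 CPM (difference 1.52, adjusted p = 2.6e-05). Constant region counts include germline and membrane transcripts and share sequence between genes, so they are not a count of switched cells.

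Interferon-stimulated genes changed in both directions, and their differences lay below Control wherever they passed. Of 23 tested 4 rose and 14 fell in DKO (Control 6 and 12), and the difference passed for 14, all below Control. Isg15, a ubiquitin-like modifier, read 17.7 and 25.6 and then 18.6 and 23.1 CPM in DKO and rose in Control from 20.1 and 36.2 to 93.6 and 115 CPM (difference -1.95 ± 0.6, adjusted p = 0.03). Irf7, the regulator that amplifies interferon responses, fell in DKO from 66.2 and 106 to 3.59 and 4.22 CPM and in Control from 80.6 and 126 to 35.7 and 34.4 CPM (difference -2.91, adjusted p = 2.9e-04). Ifih1 (MDA5), a cytosolic RNA sensor, rose from 5.17 and 6.19 to 25.9 and 30.1 CPM in DKO and from 4.79 and 8.47 to 131 and 150.0 CPM in Control (difference -2.11, adjusted p = 0.0017). The GTPase Gbp2 rose by 2.13 and 3.68 (adjusted p of the difference 9.2e-04). The list summed to 1176 and 1637 CPM in naive DKO and 1629 and 2239 CPM in naive Control cells, so its naive replicates lay apart in both genotypes, and ended at 756 and 795 CPM in DKO and 1974 and 2179.5 CPM in Control. Its genes include some that plasmacytoid dendritic cells express.

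Transcripts of most other cell types fell in both genotypes and were higher at the start in DKO. The 14 markers of plasmacytoid dendritic cells (pDC), which carry B220, summed to 4249 and 3754 CPM in naive DKO cells and 292 and 312 CPM after culture, against 986 and 723 CPM and then 301 and 290 CPM in Control. In DKO 13 of the 14 fell, as in Control, and 4 were at 0 in both DKO cultures. Siglech, the defining pDC lectin, went from 281 and 242 CPM to 0 in both DKO cultures, a level at least 3344-fold lower against a floor of 3 counts a library, and read 61.1 and 25 CPM in naive Control. T cell markers summed to 955 and 930 CPM in naive DKO and 311 and 301 CPM in the cultures (Control 447 and 357, then 77.5 and 70.4), although the sort took CD3- cells, and 14 of 18 tested fell. Cd8a alone made up 279 and 247 CPM of the naive DKO sum, against 12.8 and 2.45 CPM in naive Control. Thy1 was the T cell marker that rose, from 4.33 and 3.51 to 117 and 98 CPM in DKO and from 6.81 and 3.86 to 36.6 and 29.9 CPM in Control (difference 2.14, adjusted p = 7.4e-04). NK cell markers summed to 332 and 223 CPM in naive DKO cells and 11.3 and 12.4 CPM in the cultures. There 3 of the 10 were at 0. In Control the NK sum went from 164 and 74.9 to 0.244 and 0.419 CPM. Macrophage and monocyte markers went from 130 and 110 to 8.15 and 6.71 CPM in DKO. In Control their sum went from 51.9 and 25.6 to 19.6 and 12.6 CPM. All 10 NK markers fell, as in Control, and 8 of the 9 macrophage markers tested, against 6 in Control. The difference passed for 8 pDC and 4 macrophage markers, all below Control. It passed above Control for 6 T cell and 2 NK markers, and below for 2 T cell markers. Erythroid markers summed to 16.4 and 13.7 CPM and then 0.595 and 0.586 CPM in DKO (Control 12.6 and 12.6, then 0.69 and 0.855). Neutrophil markers stayed under 0.4 CPM in all 8 libraries. The study linked genes that SpiB represses in naive B cells to pDC, macrophage and CD8 T cell lineages. It proposes that SpiB holds down such genes within B cells. Other cells among those sorted and expression within B cells cannot be told apart here. What part the marker transcripts had in other falls, among them those of Irf7 and Ccnd1, was not tested.

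**Figure D5:**
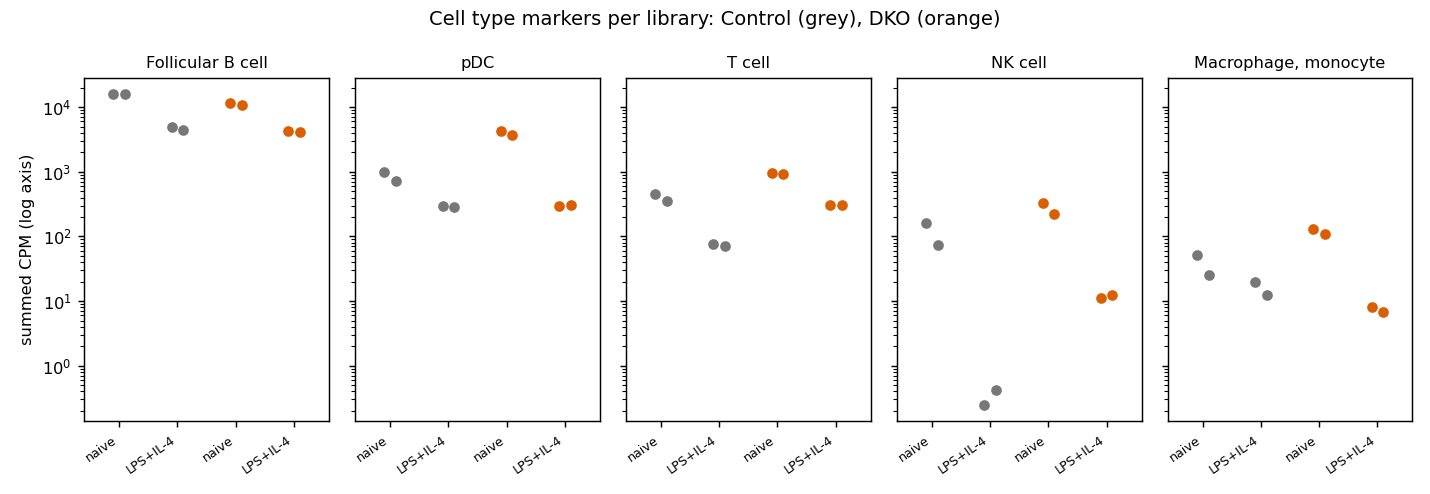
Summed level (CPM on a log axis) of the marker lists of follicular B cells, pDC, T cells, NK cells and macrophages in each of the 8 libraries, with 2 points a group. The pDC markers stood at 4249 and 3754 CPM in naive DKO cells and at 290 to 312 CPM in the cultures of both genotypes.

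The 8 largest rises in DKO among genes with a mean of at least 10 CPM over the 4 libraries were Csrp3, Ptgir, Insm1, Gm17767, Nqo1, Cenpe, Mki67 and Tnfrsf8. Csrp3, a LIM protein known from muscle, had no count in naive DKO cells and reached 95.5 and 92.3 CPM in the cultures, at least 520-fold higher, while Control cultures held 0.0406 and 0.0698 CPM. With no count in naive cells of either genotype, its difference did not pass by edgeR and passed by DESeq2 (adjusted p = 9.0e-06) and by limma voom with quantile normalization (adjusted p = 9.0e-05). Ptgir, the prostacyclin receptor, rose from 0 to 52.3 and 74.8 CPM in DKO and from 0 to 41 and 36.7 CPM in Control, at least 352-fold and 174-fold. The zinc finger factor Insm1 went from 0.0647 and 0.0558 to 98.5 and 79.2 CPM in DKO (a ratio of 1502, counting interval 416 to 12407) and reached 25.7 and 20 CPM in Control. Nqo1, a quinone reductase, reached 47.1 and 77.2 CPM in DKO and 34.4 and 27.7 CPM in Control, and Tnfrsf8 (CD30), an activation antigen, reached 73.3 and 84.6 CPM in DKO and 48.1 and 71.3 CPM in Control. Gm17767 is a predicted gene, and Cenpe, a spindle motor, reached 119.9 and 91.9 CPM.

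The 8 largest falls by the same rule were Cd7, Siglech, Klk1, Cd8a, Klrd1, Runx2, Cd300c and St8sia1, and 4 of them are in the pDC list. All 8 stood at 0 or at 1 count in all in the DKO cultures. Cd7 went from 526 and 441 CPM to 0, at least 6179-fold lower, and Klk1 from 118 and 126 CPM to 0, at least 1558-fold lower. In naive Control these genes stood at lower levels, Cd7 at 31 and 13.7 CPM and Cd8a at 12.8 and 2.45 CPM against 279 and 247 CPM in naive DKO.

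By difference from Control the 8 highest genes with at least 10 CPM in 1 group mean and a difference that passed were Htatip2, Tgfb3, Csf1, Fos, Hspa1b, Trib2, Nefh and Dusp1. Csf1, the macrophage growth factor, rose in DKO from 4.4 and 7.7 to 81.7 and 70.5 CPM and read 5.91 and 12.1 and then 3.94 and 4.38 CPM in Control (difference 4.75 ± 0.53, adjusted p = 4.5e-05). Tgfb3, a TGF-beta ligand, read 10.7 and 12.5 and then 15.7 and 11.4 CPM in DKO and fell in Control from 8.16 and 9.36 to 0.365 and 0.105 CPM (difference 5.71, adjusted p = 1.9e-05). Trib2, a pseudokinase, went from 109 and 117 to 184 and 159.7 CPM in DKO and from 85.8 and 93.6 to 9.54 and 6.93 CPM in Control (difference 4.08, adjusted p = 3.8e-08). Htatip2 was at 0 in naive DKO cells and at 0.503 and 0.498 CPM in DKO cultures, against 17.1 and 15.4 CPM and then 22.1 and 22 CPM in Control, so its fitted difference has no measured start. Nefh, a neurofilament gene, reached 17.3 and 11.5 CPM in DKO and 9.09 and 8.03 CPM in Control, and its difference did not pass without naive DKO replicate 1 (3.09) or naive Control replicate 2 (1.97). Hspa1b, an HSP70 gene with a near-identical copy, read 52 and 14.2 CPM in naive Control against 1.88 and 0.446 CPM in naive DKO, and its difference was 4.38 with and 3.16 without naive Control replicate 1.

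The 8 lowest differences were those of Dnph1, Cd8a, Slc1a2, P2ry13, Lrrc15, Gria3, St8sia1 and Dlk1. Dnph1, a nucleotide hydrolase, Slc1a2, a glutamate transporter, and Dlk1 had no count in naive Control, so that their Control rise is only a bound, at least 109-fold, 47.5-fold and 70.8-fold. They rose in DKO as well, Dnph1 from 1.1 and 0.614 to 12.9 and 13.2 CPM, and P2ry13, a purinergic receptor, fell from 34.9 and 34.8 to 0.0915 and 0.0879 CPM. Lrrc15 and Gria3, which stood at 9.57 and 14.3 and at 14.7 and 10 CPM in naive DKO cells, had no count in DKO cultures and under 2 CPM in Control, where their change rests on few counts, and their differences did not pass when some single libraries were left out.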

How the data were processed

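RNA-seq reads were aligned with Subread to GRCm38/mm10 and counted per gene over exons by the authors, who deposited raw counts for all libraries and per-library log2 RPKM tables. The deposited counts were tested, and the log2 RPKM values that the authors normalized by quantiles served only as a filter in 1 alternative. A second deposited table of counts and the other log2 RPKM tables were not used here. Rows without a gene symbol (517 of 27179 rows, 0.0859% to 0.312% of the counts) were left out.

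The 16 naive and LPS + IL-4 libraries (8 groups of 2, all 4 genotypes) were fitted together in edgeR 4.0.16 (R 4.3.3) with TMM normalization and the quasi-likelihood test, keeping 13304 genes with at least 0.5 CPM in 2 libraries. Calls needed a Benjamini-Hochberg adjusted p of at most 0.15 over all genes tested and a fold above 1.5, the thresholds of the study's methods. The DKO change, the Control change and their difference were contrasts of this fit. Against a group with no count, a fold was set against 3 counts a library. Intervals for ratios of few counts cover counting error only. In simulated counts every gene had the same mean in all groups, except 200 genes above 1 CPM changed by 1 log2 unit in the DKO cultures. Of these 88.5% were recovered for DKO and 68.5% for the difference, with 13 and 23 false calls. The simulation lacked the wide change between stages seen here, so these shares do not describe the recovery in these data.

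Named genes are the 8 largest rises and falls and the 8 highest and lowest differences at 10 CPM or more, with members of each list that changed most, that differed or that account for the list. Immunoglobulin genes and Mybpc3 were added after their values were seen. Some genes that the rule names are not reported here. The members of the comparison and the lists were chosen with earlier results of these data known. Alternatives were DESeq2 1.42.0, limma 3.58.1, other scalings, filters and thresholds, thinning to the smallest total, a replicate block and leaving out each library. P-values measure the spread between the libraries of a group, 2 biological replicates per the study.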

Additional observations from a re-analysis of the deposited data

Results flagged for a closer look

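Every result here passed the interaction test of the DKO change against the Control change, at an adjusted p of at most 0.15 by edgeR and a ratio of folds above 1.5. Over all genes tested 1670 lay above and 1808 below Control. With 2 libraries a group, no single library could be tested against the rest of its group.

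Among the genes described above, the largest differences above Control were 5.71 for Tgfb3, 4.75 for Csf1, 4.39 for Fos, 4.38 for Hspa1b, 4.08 for Trib2, 3.76 for Dusp1 and 3.16 for Irs2. Smaller ones of at least 2 were 2.72 for Jun, 2.71 for Mxd1, 2.21 for Bcl6, 2.15 for Cxcr4, 2.14 for Thy1, 2.11 for Nr4a1 and 2.06 for Il4ra. Values between 1 and 2 were 1.97 for Ets1, 1.92 for Ell2, 1.83 for Ighg1, 1.72 for Pdcd1lg2, 1.68 for Foxo1, 1.52 for Igkc, 1.48 for Klf2, 1.39 for Ighm, 1.33 for Btg2, 1.31 for Xbp1, 1.29 for Socs1, 1.29 for Irak2, 1.22 for Btg1, 1.16 for S1pr1, 1.11 for Bmf, 1.02 for Tpx2, 1.02 for Fcer2a and 1.02 for Mef2c. Differences under 1 were 0.95 for Pou2af1, 0.94 for Edem1, 0.94 for Bcl3, 0.85 for Creld2, 0.85 for H2-DMb2, 0.82 for Sel1l, 0.81 for Cd79a, 0.81 for Irf4, 0.75 for Ltb, 0.71 for Pik3cd and 0.7 for Cdkn1b.

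Below Control, the differences under -2 were -8.03 for P2ry13, -2.91 for Irf7, -2.73 for Ccnd1, -2.71 for Bcl2a1b, -2.28 for Bcl2a1d, -2.2 for Ccnd2, -2.12 for Atf3, -2.11 for Ifih1, -2.1 for Bbc3, -2.08 for Tyms and -2.07 for Elovl6. Those between -2 and -1 were -1.95 for Isg15, -1.92 for Shmt1, -1.75 for Cd44, -1.65 for Slc16a1, -1.55 for Gbp2, -1.52 for Apex1, -1.48 for Traf1, -1.45 for Sdc1, -1.39 for Pgk1, -1.36 for Polr1b, -1.29 for Slc7a5, -1.28 for Bid, -1.24 for Itgal, -1.12 for Cd72, -1.1 for Nop58, -1.07 for Npm1, -1.05 for Ung, -1.03 for Ebi3 and -1.01 for Tlr9. Closer to 0 lay -0.99 for Cd86, -0.97 for Cdk4, -0.92 for Cycs, -0.91 for Il2ra, -0.91 for Ccne1, -0.9 for Ly86, -0.84 for Idh3a, -0.83 for Batf, -0.79 for Unc93b1, -0.79 for Tlr2, -0.76 for Tlr1, -0.68 for Myc and -0.63 for Tfrc.

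For a last set of genes at least 1 of the 4 groups held 5 counts or fewer in all, so the fitted difference passes but its size is no bound, with -8.59 for Dnph1, -8.5 for Cd8a, -8.23 for Slc1a2, -7.98 for Lrrc15, -7.67 for Gria3, -7.52 for St8sia1, -6.94 for Dlk1, -4.98 for Ccl22, -4.63 for Runx2, 3.91 for Nefh and 6.5 for Htatip2. The high naive Control replicate 1 entered the differences of Fos, Dusp1, Jun, Nr4a1 and Hspa1b, which are given without it in the report.

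Beside the cases given in the report, leaving out 1 library ended the call of 5 further differences. That of Tfrc was -0.39 without Control LPS + IL-4 replicate 2 (adjusted p = 0.19) and -0.57 without naive Control replicate 2 (adjusted p = 0.11), and that of Bmf was 0.79 without Control LPS + IL-4 replicate 2 (adjusted p = 0.24) and 0.85 without naive DKO replicate 1 (adjusted p = 0.19). The Il2ra difference did not pass without replicate 2 of any of the 4 groups (-0.79 to -0.60, adjusted p = 0.17 to 0.28). The Cycs difference did not pass without any one of the DKO libraries or without replicate 2 of naive or cultured Control (-0.95 to -0.55, adjusted p = 0.18 to 0.42). The Runx2 difference did not pass without replicate 1 of naive or cultured DKO or without either Control LPS + IL-4 library (-4.75 to -3.65, adjusted p = 0.15 to 0.39), nor with counts thinned to the smallest total (-3.41, adjusted p = 0.48). By limma voom with quantile normalization the differences of Atf3, Ccl22, Cdkn1b, Cycs, Fos, Il2ra, Ltb and Tfrc did not pass.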

How the results depend on the processing

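The counts of genes called in DKO, in Control and in the difference stayed within 1.5 times the main counts under every alternative run. DKO rises ranged from 3942 to 4154 and falls from 3828 to 3991 with 1 library left out, and differences from 1221 to 2020 above and 1311 to 2124 below Control. DESeq2 called 4075 rises, 4002 falls and 1648 and 1853 differences, and limma voom with quantile normalization 4099, 4216, 1809 and 1648. An adjusted p of 0.05 left 3952 rises, 3866 falls and 1201 and 1365 differences. Scaling by library totals shifted the median change of all genes to 0.159 in DKO and 0.184 in Control, with 57.1% of the DKO calls rises against 50.6% by TMM. The share of Control rises found in DKO was 75.8% with no filter on low counts, 78.8% for genes with a mean log2 RPKM above 0, and 74.6% to 79.7% with 1 library left out. The share of Control falls found in DKO was 76.5% in a fit of only the libraries compared, 71.7% with no filter, and 72.7% to 77.3% with 1 library left out. The cause of these shifts was not tested. The DKO list medians recomputed under alternatives were set against the SD of 2 medians, each from a culture and the naive library of the same number. By that yardstick 392 stayed within it, 102 moved beyond it and none reversed. The pairing by number is arbitrary, so the SD is only a rough measure of the spread between replicates.

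Replicate numbers do not pair the stages: deviations of same-numbered libraries correlated at 0.312 to 0.431 between genotypes within LPS + IL-4, at 0.0492 to 0.198 within naive cells and at -0.151 to -0.0155 between stages. With replicate number as a block, DKO had 4144 rises and 4046 falls and the difference 1672 and 1819. With the naive numbers crossed, chosen after seeing the data, the counts were 4160 and 4062 and 1807 and 1889, and with a block within LPS + IL-4 only, also chosen then, 4144 and 4019 and 1738 and 1821. With 2 libraries a group, an exact permutation test of 1 gene cannot go below p = 0.333, so every call rests on the spread shared across genes. Genes under 0.5 CPM in all but 1 library were not tested.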
